A study of Rattus norvegicus with 43 samples.

Results

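The liver breaks down amino acids through routes that few other tissues run in full, and the transcripts of 49 enzymes of these routes were followed as rat hepatocytes left the liver and were kept in culture. The 49 genes are a list of named genes and fall into 10 routes for tyrosine, tryptophan, histidine, methionine and transsulfuration, cysteine and taurine, glycine, serine and one-carbon units, glyoxylate, lysine and proline, alanine and aspartate, and the branched-chain amino acids with propionate. Amdhd1 of histidine breakdown and Pipox of glycine formation have no probe set of their own in the gene table used here and were not analysed. The other 47 were all above the filter on dim probe sets and were tested among 10650 genes.

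Samples came from 3 untreated male Sprague Dawley rats of an age that the sources used here do not state. Each rat gave a lobe of intact liver tied off before perfusion (liver), the pellet of freshly isolated hepatocytes (rat primary hepatocytes, RPH, at 0 h), and plated RPH after 4, 24 and 48 h, so that each of the 5 groups has n = 3 rats. Plated cells grew on collagen in William's E medium with glutamate, gentamicin, insulin, transferrin and dexamethasone, with serum for the first 4 h, while liver and pellet had no such medium. Medium and time in culture therefore cannot be told apart in these samples. RNA was measured on 43 Affymetrix RG230-2 arrays, since every rat had 3 technical arrays in a group, except 2 rat and group pairs that had 2.

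Values below are MAS5 signals, the linear brightness of a probe set with each array scaled to the same trimmed mean, and the signal of a rat is the geometric mean of its technical arrays. The signals of rats 1, 2 and 3 are always given in this order. Changes are log2 fold changes ± SE from 1 limma fit over all 15 samples, where 1 unit is a 2-fold difference, and a gene is called higher or lower at a Benjamini-Hochberg adjusted p under 0.05 over the 10650 genes. Arrays measure RNA per amount of total RNA, so fewer cells of a type and less RNA per cell cannot be told apart. The medians of the arrays ranged from 108 to 145 in liver and from 79.4 to 116 in RPH. Pellet and cultures of the same rat deviated together from their group means (median r across genes 0.415, lowest 0.212, over 18 pairs). Livers of rats 1 and 2 did not follow the pellet and cultures of their own rat more closely than those of the other (median r -0.00388 and -0.0596 with the own rat, 0.197 and 0.0869 with the other, over 4 pairs each). The fit has no rat term, and fits with the rat as a block are given where they change a count or a call. Rat 2 had the highest of the 3 signals for 25 of the 47 genes in the pellet and for 25 at 24 h, rat 3 for 24 at 4 h, and rat 1 for at most 5 at these times.

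Hepatocytes take amino acids that exceed the needs of protein synthesis, remove their nitrogen by transaminases and oxidise the carbon chains in the mitochondria. Several of the entry enzymes are textbook examples of hormonal control: Tat and Tdo2 are induced by glucocorticoids, and Sds by glucagon and fasting. Loss of single steps causes inborn errors such as alkaptonuria (Hgd), tyrosinemia (Fah), primary hyperoxaluria (Agxt) and maple syrup urine disease (Bckdha, Bckdhb, Dbt).

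Most of the 47 transcripts had fallen by the end of culture. At 48 h 35 were lower and 2 higher than in liver by limma, where 22.6% of all 10650 genes were lower and 25.4% higher. The lower members were 74.5% of those tested, 28 of them by more than 2-fold and 13 by more than 4-fold. The median log2 fold change of the members was -1.18, against 0.04 for all genes. At 48 h 36 members had every rat below every liver, and 28.1% of all genes did. The lower members numbered 33 and 34 without the liver of rat 1 or of rat 2, and 0 members were higher when either of these livers was left out. The 10 members that did not pass the test at 48 h were Tat, Tdo2, Afmid, Ahcy, Gldc, Shmt1, Dao, Bckdhb, Dbt and Pccb.

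**Figure D1:**
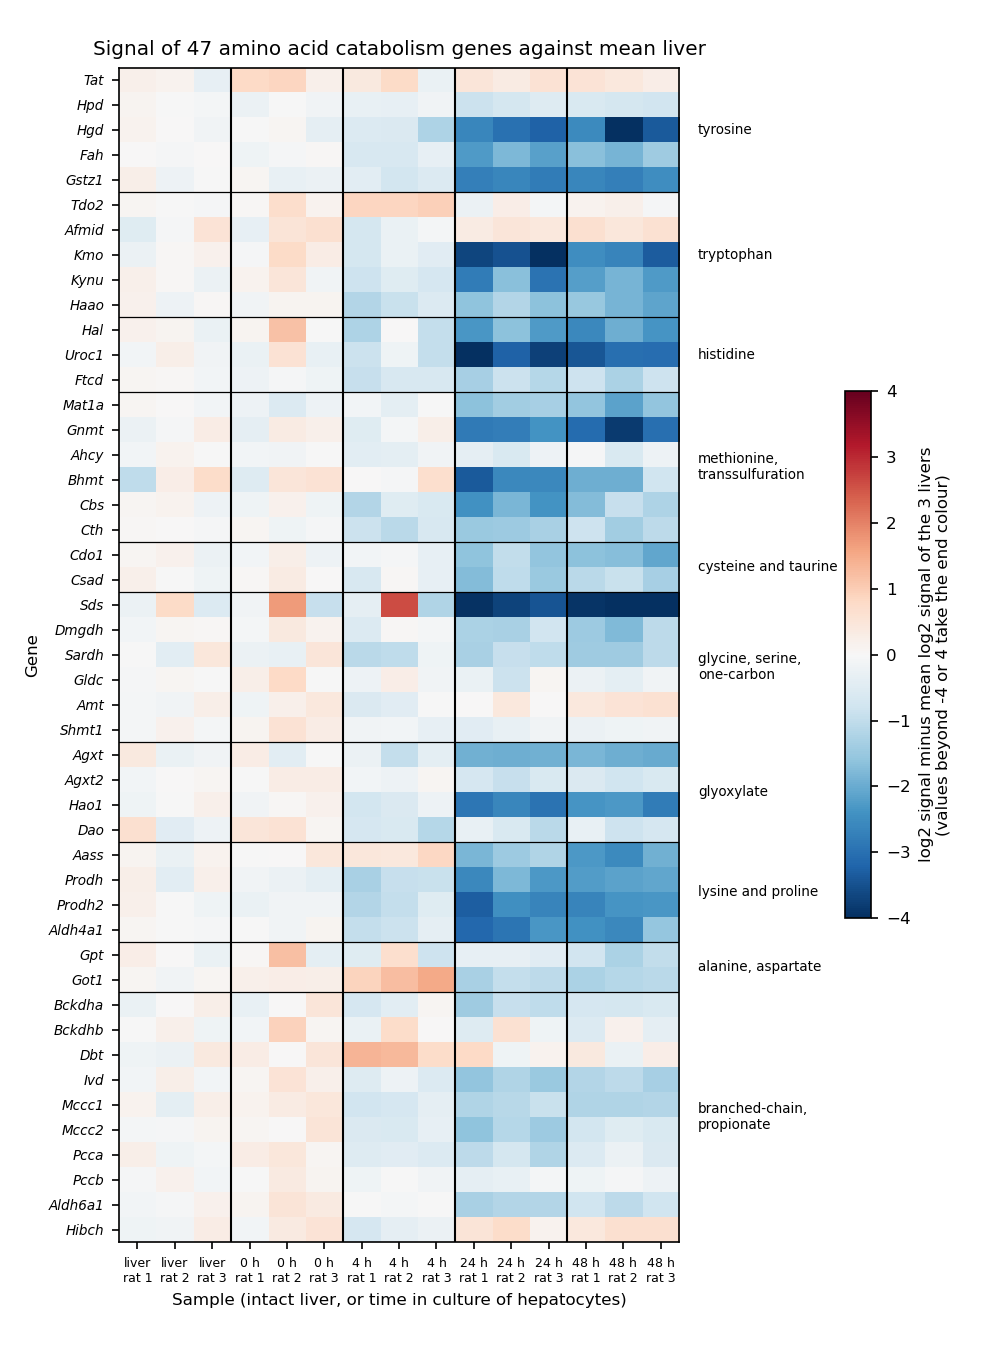
Log2 signal of each of the 47 enzymes in each of the 15 samples (columns, 3 rats per group) minus the mean log2 signal of the 3 livers, with genes (rows) ordered by route. The columns at 24 h and 48 h are blue for most rows, while Tat, Tdo2, Afmid, Amt and Hibch stay near or above liver.

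The falls were called after plating and not with isolation. In the pellet at 0 h 0 of the 47 members were called against liver by limma in either direction, where 0.432% of all genes were lower and 0.141% higher, and 2 members (Tat and Aldh6a1) had an unadjusted p under 0.05. The median change of the members was 0.15 at 0 h, against -0.08 for all genes. From 0 h to 4 h 18 members fell and 3 rose (Tdo2, Got1 and Dbt), where 22.6% of all genes fell and 16.3% rose. From 4 h to 24 h 33 fell and 2 rose (Afmid and Hibch), where 13.5% of all genes fell and 26.3% rose, and the median of the members was -0.92 against 0.14 for all genes. From 24 h to 48 h 0 fell and 1 (Mccc2) rose, where 1.77% of all genes fell and 2.51% rose, and 10 members had an unadjusted p under 0.05 in either direction.

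Both outer comparisons describe nearly the same members. At 24 h 34 members were lower than liver and 0 higher, where 23.9% of all genes were lower and 23.7% higher, and all 34 were also lower at 48 h, when Gpt joined them. These comparisons share the livers. When arrays were centred on their medians, the members split into 29 lower and 4 higher at 24 h against liver, and into 5 lower and 2 higher at 4 h against 0 h. Of the 35 members lower at 48 h, the largest single step lay between 4 h and 24 h for 28, between 0 h and 4 h for 6 and between 24 h and 48 h for 1 (Gpt). Of the calls between 0 h and 4 h, 2 of 18 falls and 1 of 3 rises held under all 20 alternatives tried, against 24 of 33 falls from 4 h to 24 h and 25 of 35 at 48 h against liver. The losses named below for single early steps are those with samples or rats left out, and other processing added further losses. From 0 h to 4 h Fah (adjusted p 0.0167 to 0.218) and Cbs were called in 9 of the 20, Hao1 in 11 and Hibch in 12. Tdo2 and Dbt were called in 13, Shmt1 in 14, Prodh in 15 and Ftcd in 17. Without rat 1, 2 or 3 the falls from 0 h to 4 h numbered 7, 9 and 8, without the pellet of rat 2 they numbered 11, and without the 4 h sample of rat 1 they numbered 9. The steps between pellet and cultures involve no liver, and with the rat as a block the fit called 27 members lower and 4 higher from 0 h to 4 h, adding Gstz1, Afmid, Uroc1, Sardh, Amt, Agxt, Aldh4a1, Bckdha and Aldh6a1 to the falls and Aass to the rises. It called 34 lower and 3 higher from 4 h to 24 h, adding Mccc1 and Amt, and 1 lower (Aass) and 4 higher (Kmo, Bhmt, Cbs and Mccc2) from 24 h to 48 h.

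**Figure D2:**
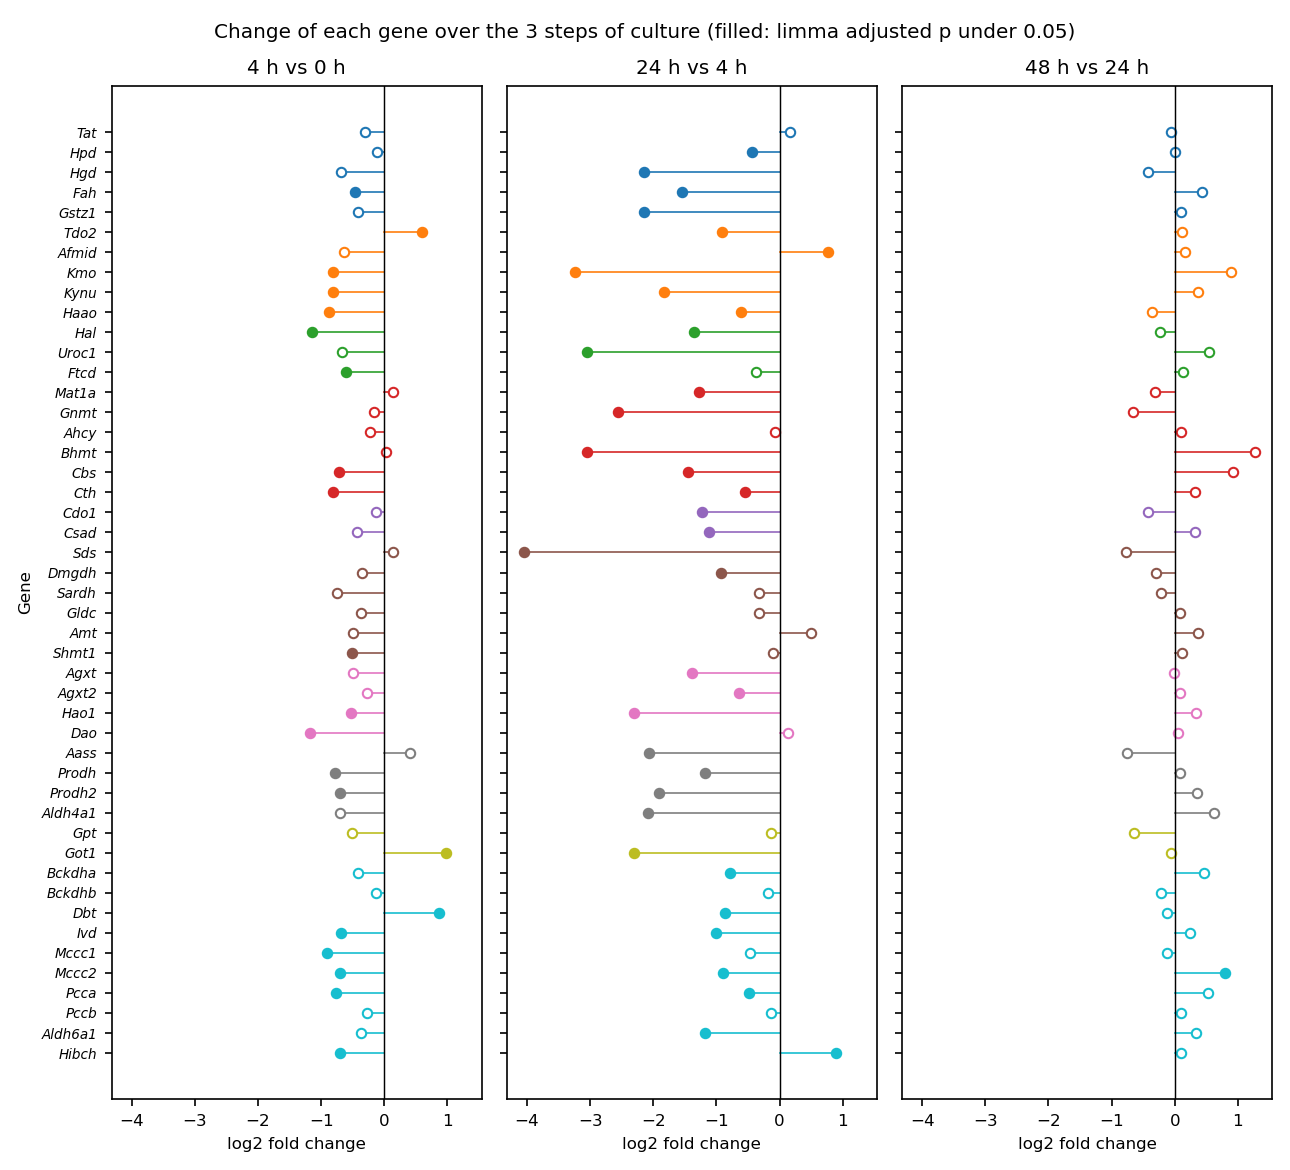
Log2 fold change of each of the 47 enzymes (rows) from 0 h to 4 h, from 4 h to 24 h and from 24 h to 48 h, coloured by route from tyrosine at the top to the branched-chain amino acids at the bottom, with filled points past an adjusted p of 0.05 and open points not past it. The middle panel holds 33 falls, and the panel on the right holds Mccc2 as its only filled point.

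The sequences before the start sites are shown for the members at both ends of the range, with the deepest falls that have a sequence (Hgd, Gnmt and Uroc1), the rise of Hibch, and Tat and Tdo2, which were chosen after their values were seen as entry enzymes that ended near liver. They are RefSeq sequence of GRCr8 from 250 bases before the listed start, written 5′ to 3′ on the strand of the gene and ended where the annotated gene begins. The window of Amt lies inside its annotated gene and is not printed. Capitals mark any letters of 7 motifs searched on both strands, namely the TATA box TATAAA, the C/EBP motif TTGCNNAA, the HNF1 motif GTTAAT, the FOXA motif TGTTTAC, the nuclear receptor core AGGTCA, the glucocorticoid receptor core TGTTCT and the cAMP response core TGACG.
Hgd (chr11:76643777-76644017, minus strand): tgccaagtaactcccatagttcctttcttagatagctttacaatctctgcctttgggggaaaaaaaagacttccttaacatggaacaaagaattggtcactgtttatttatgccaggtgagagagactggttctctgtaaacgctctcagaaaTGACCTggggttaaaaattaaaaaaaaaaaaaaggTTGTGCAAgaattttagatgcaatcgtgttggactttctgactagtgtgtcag
Gnmt (chr9:21752032-21752234, plus strand): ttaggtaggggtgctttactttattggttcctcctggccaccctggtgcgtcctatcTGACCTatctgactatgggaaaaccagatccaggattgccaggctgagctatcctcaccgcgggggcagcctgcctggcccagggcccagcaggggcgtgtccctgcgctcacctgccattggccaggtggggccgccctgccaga
Uroc1 (chr4:124401869-124402118, plus strand): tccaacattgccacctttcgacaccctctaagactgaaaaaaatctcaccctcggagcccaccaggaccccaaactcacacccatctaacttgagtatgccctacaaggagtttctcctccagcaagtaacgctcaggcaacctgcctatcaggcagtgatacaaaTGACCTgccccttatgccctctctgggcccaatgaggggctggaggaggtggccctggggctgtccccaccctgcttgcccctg
Hibch (chr9:56161797-56162046, minus strand): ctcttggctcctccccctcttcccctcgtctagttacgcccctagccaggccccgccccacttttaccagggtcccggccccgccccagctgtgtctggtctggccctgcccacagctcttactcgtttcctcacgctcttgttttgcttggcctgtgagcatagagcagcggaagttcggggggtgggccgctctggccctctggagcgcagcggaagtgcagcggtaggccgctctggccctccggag
Tat (chr19:54856354-54856603, plus strand): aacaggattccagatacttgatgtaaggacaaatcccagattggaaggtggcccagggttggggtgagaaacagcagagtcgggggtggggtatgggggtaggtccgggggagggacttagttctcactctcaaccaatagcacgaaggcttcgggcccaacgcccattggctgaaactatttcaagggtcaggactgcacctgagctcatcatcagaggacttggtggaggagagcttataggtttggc
Tdo2 (chr2:169585587-169585836, minus strand): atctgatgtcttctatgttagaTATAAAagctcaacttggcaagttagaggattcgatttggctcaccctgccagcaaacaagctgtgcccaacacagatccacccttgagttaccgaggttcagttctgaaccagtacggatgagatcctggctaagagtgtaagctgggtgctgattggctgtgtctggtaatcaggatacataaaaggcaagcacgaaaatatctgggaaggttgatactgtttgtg

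In these stretches AGGTCA was found in Hgd, Gnmt and Uroc1 (as TGACCT on the strand shown) and the C/EBP motif in Hgd. The letters TATAAA were found in Tdo2, at positions -228 to -223 from the listed start. None of the 7 motifs was found in the stretches of Hibch and Tat. Of the 47 tested members 39 have a sequence. In the full 250 bases AGGTCA was found in 9 of 27 members that were lower at 48 h (33.3%), in 3 of the 12 others and in 14.1% of all 33469 listed promoters. TTGCNNAA was in 4 of the 27, in 1 of the 12 and in 9.2% of all, and TATAAA in 4, 2 and 12.9%. TGTTCT was in 4 of the 27, 1 of the 12 and 17.5% of all, TGACG in 5, 0 and 18.2%, GTTAAT in 3, 0 and 6.5%, and TGTTTAC in 0, 0 and 3.2%. No matches overlap in the stretches shown. A match in letters is a description of the sequence and not a measured site.

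In tyrosine breakdown 4 of the 5 transcripts were lower at 48 h than in liver and 0 were higher, and that of the entry enzyme Tat was not called. Hgd, the homogentisate dioxygenase, had signals of 11150, 10200 and 9214 in liver, 10010, 10740 and 7957 at 0 h, 6914, 6820 and 4296 at 4 h, 1648, 1294 and 1090 at 24 h and 1755, 566 and 984 at 48 h. Its 24 h and 48 h signals lay below every liver, pellet and 4 h signal, and rat 2 was the lowest at 48 h. The change was -2.15 ± 0.33 from 4 h to 24 h (adjusted p = 2.4e-04) and -3.36 ± 0.33 at 48 h against liver (adjusted p = 3.3e-06), which is 10.2-fold lower. Gstz1, the maleylacetoacetate isomerase of the following step, fell from 19910, 14590 and 16580 in liver to 2750, 2519 and 3008 at 48 h (-2.62 ± 0.16, adjusted p = 5.6e-08), with the 48 h rats close together and far under the livers. Fah, which cleaves fumarylacetoacetate at the end of the route, had signals of 19240, 18340 and 19210 in liver, 3927, 5452 and 4245 at 24 h and 5989, 5272 and 7099 at 48 h (-1.64 ± 0.16 against liver, adjusted p = 3.3e-06). It was already lower at 4 h than at 0 h (-0.47 ± 0.16, adjusted p = 0.034), a step not called without the pellet of rat 2 or 3, the 4 h sample of rat 1 or 2 or all samples of any rat (log2 changes -0.52 to -0.41, adjusted p 0.0717 to 0.155).

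Hpd, the hydroxyphenylpyruvate dioxygenase that makes homogentisate, fell less (-0.69 ± 0.13, adjusted p = 7.8e-04). It was called in 17 of 20 alternatives (log2 changes -0.74 to -0.15, adjusted p 7.5e-05 to 0.297), with the losses under quantile normalization, centred arrays and the beta-actin covariate described below. Tat, the tyrosine aminotransferase, had signals of 3881, 3670 and 2671 in liver, 5798, 6048 and 3864 at 0 h, 4416, 5775 and 2810 at 4 h, 4746, 4201 and 5069 at 24 h and 4866, 4537 and 4081 at 48 h. The 48 h signals lay just above the highest liver, while those at 0 h and 4 h spread widely with rat 3 lowest. The difference at 48 h was 0.41 ± 0.25 with a 95% interval of -0.13 to 0.96 (adjusted p = 0.19). With centred arrays Tat was called higher (adjusted p = 0.0231, with a range of 0.0231 to 0.485 over its 20 alternatives).

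In tryptophan breakdown 3 of 5 members (Kmo, Kynu and Haao) were lower at 48 h and 0 higher. Tdo2, the tryptophan dioxygenase that opens the ring, had signals of 19360, 18520 and 17770 in liver, 19250, 30310 and 20540 at 0 h, 33790, 33700 and 36210 at 4 h, 15900, 22060 and 17570 at 24 h and 20570, 21500 and 17940 at 48 h. All rats were highest at 4 h, above every other sample, and those at 24 h and 48 h lay on both sides of the livers. Tdo2 rose by 0.59 ± 0.18 from 0 h to 4 h (adjusted p = 0.018), a call lost without the pellet of rat 1 or 3, the 4 h sample of rat 3 or all samples of rat 1 or 3 (log2 changes 0.47 to 0.56, adjusted p 0.0520 to 0.202). It fell by 0.91 ± 0.18 on the log2 scale from 4 h to 24 h (adjusted p = 0.0013) and differed from liver by 0.11 ± 0.18 at 48 h (95% interval -0.28 to 0.49, adjusted p = 0.65). Under quantile normalization Tdo2 was called higher at 48 h (adjusted p = 0.0264, with a range of 0.0264 to 0.865 over its 20 alternatives).

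Kmo, the kynurenine monooxygenase, made the largest step of this route. Its signals were 2500, 3017 and 3297 in liver, 2807, 4938 and 3594 at 0 h, 1782, 2431 and 2137 at 4 h, 230.5, 259.8 and 184 at 24 h and 519.5, 466 and 294 at 48 h. The 24 h rats were the lowest, and each was under the 48 h sample of the same rat, while both groups lay far under liver. The change was -3.24 ± 0.25 from 4 h to 24 h (adjusted p = 1.2e-06), 0.90 ± 0.25 from 24 h to 48 h (adjusted p = 0.064) and -2.82 ± 0.25 at 48 h against liver (adjusted p = 1.4e-06). Kynu, the kynureninase, had signals of 13590, 12160 and 10110 in liver and 2576, 3281 and 2480 at 48 h (-2.10 ± 0.29, adjusted p = 5.7e-05). Haao, which makes the precursor of quinolinate, had 10020, 7726 and 9259 in liver and 3133, 2458 and 2065 at 48 h (-1.83 ± 0.21, adjusted p = 1.0e-05). In neither gene did the groups overlap. Afmid, the formamidase after Tdo2, rose from 4 h to 24 h (0.76 ± 0.28, adjusted p = 0.043), a call lost without the 4 h sample of rat 1 or 2, the 24 h sample of any rat or all samples of any rat (log2 changes 0.59 to 0.90, adjusted p 0.0689 to 0.201). It ended 0.57 ± 0.28 above liver (95% interval -0.03 to 1.18, adjusted p = 0.10), with rat 3 of the livers inside the 48 h range. The other probe sets of Afmid, of similar brightness, gave 0.22 and 0.30. With the rat as a block Afmid was called higher at 48 h (adjusted p = 0.0372), as it was without the liver of rat 3 (log2 change 0.85, adjusted p 0.0256), with a range of 0.0234 to 0.993 over its 20 alternatives.

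**Figure D3:**
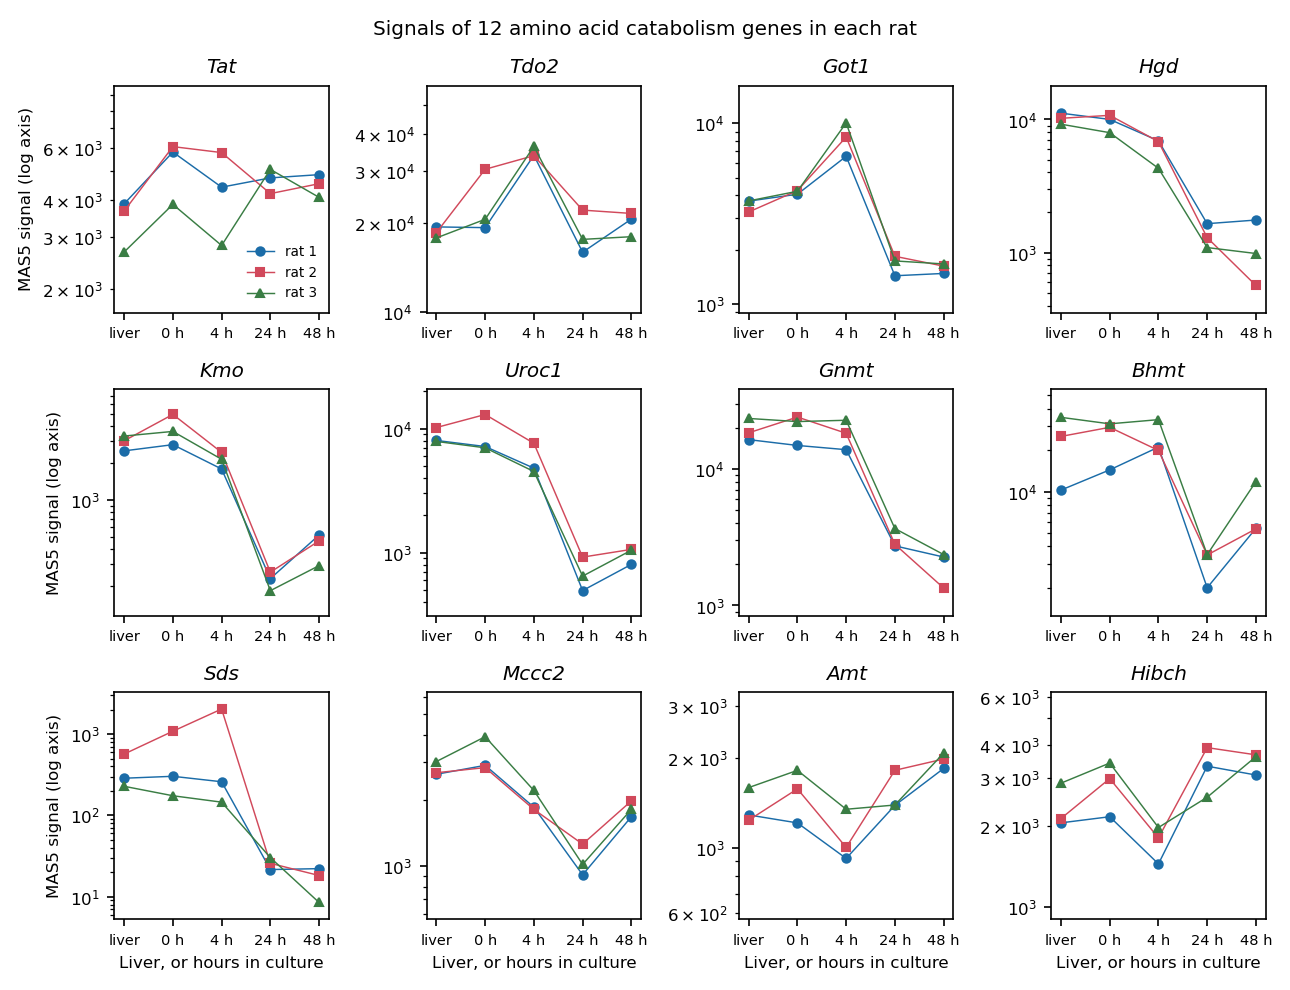
MAS5 signal on log axes of 12 of the enzymes in liver and at 0, 4, 24 and 48 h (evenly spaced), with a point and line for each of the 3 rats. Tdo2 and Got1 are highest at 4 h, Hgd, Kmo, Uroc1, Gnmt, Bhmt and Sds drop between 4 h and 24 h, and Amt and Hibch are lowest at 4 h and end above liver.

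For histidine breakdown the transcripts of all 3 enzymes measured were lower at 48 h than in liver. Uroc1, the urocanase, had signals of 8039, 10220 and 7894 in liver, 7181, 13020 and 7010 at 0 h, 4803, 7630 and 4513 at 4 h, 494, 919 and 646 at 24 h and 803, 1061 and 1045 at 48 h. Rat 2 was the highest in liver and in all RPH groups, and all rats at 24 h and 48 h lay below every earlier sample. Uroc1 changed by -3.05 ± 0.29 from 4 h to 24 h (adjusted p = 5.4e-06) and was 9.00-fold lower at 48 h than in liver (-3.17 ± 0.29, adjusted p = 1.7e-06). Hal, the histidase that forms urocanate, had signals of 2959, 2793 and 2154 in liver, 2829, 5922 and 2565 at 0 h, 1116, 2621 and 1353 at 4 h and 440.1, 668 and 505 at 48 h. The pellet of rat 2 stood above all other samples, and the 48 h signals were below every liver (-2.30 ± 0.35, adjusted p = 1.5e-04). Ftcd, which passes the formimino group to folate, had 14430, 14340 and 12730 in liver and 7724, 5717 and 7803 at 48 h (-0.98 ± 0.16, adjusted p = 3.2e-04), and it had already fallen by 4 h (-0.60 ± 0.16, adjusted p = 0.011), a call lost without all samples of rat 1 or 3 (log2 changes -0.66 to -0.53, adjusted p 0.0754 to 0.0986).

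In the methionine cycle and transsulfuration 5 of the 6 members were lower at 48 h and 0 higher. Gnmt, which spends S-adenosylmethionine to methylate glycine, had signals of 16460, 18470 and 23540 in liver, 14920, 24100 and 22330 at 0 h, 13890, 18330 and 22830 at 4 h, 2737, 2809 and 3665 at 24 h and 2267, 1343 and 2364 at 48 h. Liver, 0 h and 4 h signals overlapped, and the 24 h and 48 h signals lay far below them with rat 2 lowest at 48 h. The change was -2.56 ± 0.27 from 4 h to 24 h (adjusted p = 1.1e-05) and -3.32 ± 0.27 at 48 h against liver (adjusted p = 6.0e-07). Mat1a, the liver form of methionine adenosyltransferase, had signals of 27490, 26040 and 24210 in liver, 24080, 19560 and 25510 at 4 h and 8579, 5916 and 8618 at 48 h (-1.77 ± 0.18, adjusted p = 4.2e-06). Liver and 4 h signals of Mat1a were near each other, and those at 48 h were below all of them.

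Bhmt, which remethylates homocysteine with betaine, differed most between livers. Its signals were 10250, 25140 and 34590 in liver, 14370, 29270 and 31030 at 0 h, 21020, 19900 and 33280 at 4 h, 2003, 3464 and 3485 at 24 h and 5409, 5360 and 11810 at 48 h. Rat 1 had the lowest liver and rat 3 the highest, the 24 h signals were the lowest in every rat, and the 48 h signal of rat 3 exceeded the liver of rat 1. Bhmt changed by -3.06 ± 0.46 from 4 h to 24 h (adjusted p = 2.0e-04), by 1.27 ± 0.46 from 24 h to 48 h (adjusted p = 0.17) and by -1.57 ± 0.46 at 48 h against liver (adjusted p = 0.013). The last call was lost without the liver of rat 3, the 48 h sample of rat 2 or all samples of rat 2 (log2 changes -1.38 to -1.20, adjusted p 0.0535 to 0.188), and Bhmt was called in 16 of 20 alternatives (log2 changes -2.56 to -1.18, adjusted p 4.6e-04 to 0.188). Cbs, the cystathionine synthase, had signals of 5539, 5875 and 4570 in liver, 4703, 6027 and 4735 at 0 h, 2329, 3798 and 3463 at 4 h, 978, 1492 and 1016 at 24 h and 1592, 2782 and 2267 at 48 h. It fell at both early steps (-0.71 and -1.46) and ended at -1.30 ± 0.25 against liver (adjusted p = 7.9e-04), with the call to 4 h lost without the pellet of any rat, the 4 h sample of rat 1 or all samples of any rat (log2 changes -0.84 to -0.50, adjusted p 0.0528 to 0.148). Cth, which releases cysteine, was lower by 4 h (-0.81 ± 0.16, adjusted p = 0.0015) and at 48 h (-1.09 ± 0.16, adjusted p = 1.1e-04). Ahcy, which hydrolyses S-adenosylhomocysteine and is used by all cell types, differed from liver by -0.29 ± 0.17 at 48 h (95% interval -0.65 to 0.08, adjusted p = 0.18).

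Both transcripts of the enzymes from cysteine to taurine were lower at 24 h and 48 h. Cdo1, the cysteine dioxygenase, had signals of 30030, 32200 and 24520 in liver, 26920, 27680 and 23110 at 4 h, 9356, 14600 and 9677 at 24 h and 9214, 8755 and 6818 at 48 h. At 4 h it overlapped liver, and it fell by 1.23 ± 0.20 on the log2 scale to 24 h (adjusted p = 3.7e-04), ending at -1.81 ± 0.20 against liver (adjusted p = 1.0e-05). Csad, the decarboxylase of cysteine sulfinate, had 11300, 9671 and 8611 in liver and 4684, 5257 and 3919 at 48 h (-1.10 ± 0.22, adjusted p = 0.0011). That change was called in 18 of 20 alternatives (log2 changes -1.20 to -0.70, adjusted p 5.4e-05 to 0.0913), with the losses under centred arrays and the beta-actin covariate.

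The glycine and serine route was mixed, with 3 of 6 members lower at 48 h and 1 higher. Sds, the serine dehydratase, had signals of 287, 569 and 228 in liver, 303, 1086 and 175 at 0 h, 259.5, 2036 and 146 at 4 h, 21.6, 25.8 and 30.2 at 24 h and 22.1, 18.2 and 8.49 at 48 h. Rat 2 stood several times above the other rats in pellet and at 4 h, while at 24 h and 48 h all rats were close to the dim end of the arrays. Sds changed by -4.47 ± 0.84 at 48 h against liver (adjusted p = 7.2e-04), and by -2.89 with 32 added to every signal, which damps the spread of dim values (adjusted p = 0.0036). Dmgdh and Sardh, the mitochondrial dehydrogenases of dimethylglycine and sarcosine, had signals of 2040, 1653 and 2698 and of 1862, 1874 and 2455 at 48 h, all below their livers of 5128, 5836 and 5801 and of 4950, 3779 and 6819. Their changes were -1.42 ± 0.22 (adjusted p = 1.6e-04) and -1.30 ± 0.29 (adjusted p = 0.0023), and Sardh was called in 19 of 20 alternatives (log2 changes -1.50 to -0.91, adjusted p 6.6e-05 to 0.0560).

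Amt, the aminomethyltransferase of the glycine cleavage system, ended higher than liver. Its signals were 1287, 1236 and 1591 in liver, 1210, 1575 and 1818 at 0 h, 919, 1001 and 1345 at 4 h, 1386, 1819 and 1390 at 24 h and 1845, 1985 and 2078 at 48 h. The 4 h signals were the lowest of each rat, and all 48 h signals lay above all livers. The change at 48 h was 0.53 ± 0.19 against liver (adjusted p = 0.038). This call was lost without the liver of rat 1 or 2, the 48 h sample of any rat or all samples of any rat (log2 changes 0.45 to 0.60, adjusted p 0.0540 to 0.227). It was called in 9 of 20 alternatives (log2 changes 0.41 to 0.92, adjusted p 0.0105 to 0.329). Gldc, the decarboxylase of the same system, differed from liver by -0.26 ± 0.24 (95% interval -0.78 to 0.26, adjusted p = 0.39), and Shmt1, the cytosolic serine hydroxymethyltransferase, by -0.19 ± 0.15 (95% interval -0.51 to 0.13, adjusted p = 0.32). Shmt1 was lower at 4 h than at 0 h (-0.51 ± 0.15, adjusted p = 0.016), which was not called without the pellet of rat 2, the 4 h sample of rat 3 or all samples of rat 2 or 3 (log2 changes -0.46 to -0.38, adjusted p 0.0559 to 0.136).

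Of the 4 glyoxylate transcripts 3 were lower at 48 h. Hao1, the glycolate oxidase of peroxisomes, had signals of 13990, 15770 and 18200 in liver, 14330, 16290 and 17820 at 0 h, 9536, 10570 and 13660 at 4 h, 2129, 2578 and 2051 at 24 h and 3096, 3202 and 2287 at 48 h. It fell at both early steps, the call to 4 h being lost without the pellet of rat 2 or 3, the 4 h sample of rat 1 or 2 or all samples of rat 1 or 2 (log2 changes -0.52 to -0.42, adjusted p 0.0797 to 0.205), and the 24 h and 48 h signals lay under every 4 h signal (-2.49 ± 0.19 against liver, adjusted p = 3.1e-07). Agxt, which turns glyoxylate into glycine, had signals of 5597, 3564 and 3839 in liver, 1130, 1097 and 1113 at 24 h and 1184, 1094 and 1046 at 48 h (-1.94 ± 0.23, adjusted p = 1.4e-05). The livers of Agxt differed more among rats than the cultures at 24 h. Agxt2, a mitochondrial aminotransferase, had 3902, 4279 and 4432 in liver and 2811, 2416 and 2777 at 48 h (-0.66 ± 0.15, adjusted p = 0.0024), and the call was lost with centred arrays (adjusted p 0.278, the highest of its 20 alternatives). Dao, the oxidase of D-amino acids, fell from 0 h to 4 h (-1.17 ± 0.29, adjusted p = 0.0059), a call lost without all samples of rat 2 (log2 change -1.17, adjusted p 0.0504). It differed from liver by -0.60 ± 0.29 at 48 h (95% interval -1.22 to 0.01, adjusted p = 0.098). With the rat as a block Dao was called lower at 48 h (adjusted p = 0.0294), as it was without the liver of rat 2 (log2 change -0.83, adjusted p 0.0456), with a range of 0.0294 to 0.574 over its 20 alternatives.

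Transcripts of lysine and proline breakdown were lower by the end of culture, with all 4 members called lower at 24 h and at 48 h. Aass, the bifunctional enzyme that starts lysine breakdown, had signals of 11090, 8525 and 11350 in liver, 10030, 10410 and 14100 at 0 h, 13990, 13670 and 18110 at 4 h, 2881, 3746 and 4400 at 24 h and 2106, 1749 and 2704 at 48 h. At 4 h every rat was at its highest of the course, and from 24 h all rats were below every liver. Aass changed by -2.06 ± 0.22 from 4 h to 24 h (adjusted p = 1.3e-05) and by -2.25 ± 0.22 at 48 h against liver (adjusted p = 3.0e-06). Prodh2, which acts on hydroxyproline, had signals of 8045, 6913 and 6306 in liver and 1141, 1370 and 1391 at 48 h (-2.44 ± 0.22, adjusted p = 1.6e-06). Aldh4a1, the dehydrogenase that follows both proline oxidases, had 9891, 9319 and 9190 in liver, 1074, 1238 and 1864 at 24 h and 1781, 1580 and 3246 at 48 h (-2.18 ± 0.27, adjusted p = 2.2e-05). Rat 3 was the highest of the cultures in Aldh4a1 at both times. Prodh, the proline oxidase, fell at both early steps, the call to 4 h being lost without the 4 h sample of rat 1 or all samples of rat 1 or 3 (log2 changes -0.91 to -0.60, adjusted p 0.0527 to 0.126), and was 4.42-fold lower at 48 h (-2.14 ± 0.22, adjusted p = 4.4e-06).

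The aminotransferases of alanine and aspartate followed different courses. Got1, the cytosolic aspartate aminotransferase, had signals of 3708, 3229 and 3716 in liver, 4048, 4239 and 4204 at 0 h, 6563, 8394 and 10050 at 4 h, 1432, 1835 and 1730 at 24 h and 1475, 1619 and 1665 at 48 h. Every rat was highest at 4 h and lowest at 24 h or 48 h, with no overlap between 0 h and 4 h or between 4 h and 24 h. Got1 rose by 0.98 ± 0.16 from 0 h to 4 h (adjusted p = 4.1e-04), changed by -2.31 ± 0.16 to 24 h (adjusted p = 4.6e-07) and was -1.16 ± 0.16 against liver at 48 h (adjusted p = 6.6e-05). Gpt, the alanine aminotransferase, had signals of 3468, 2938 and 2429 in liver, 3017, 6655 and 2238 at 0 h, 2069, 4610 and 1630 at 4 h, 2346, 2346 and 2140 at 24 h and 1720, 1211 and 1474 at 48 h. Rat 2 was far above the others in pellet and at 4 h, and the 48 h signals were the lowest of each rat. The call of Gpt at 48 h against liver (-1.0 ± 0.39, adjusted p = 0.048) was lost without the liver of any rat, the 48 h sample of any rat or all samples of rat 1 or 3 (log2 changes -1.15 to -0.87, adjusted p 0.0574 to 0.197). It was called in 8 of 20 alternatives (log2 changes -1.14 to -0.44, adjusted p 0.00547 to 0.630).

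**Figure D4:**
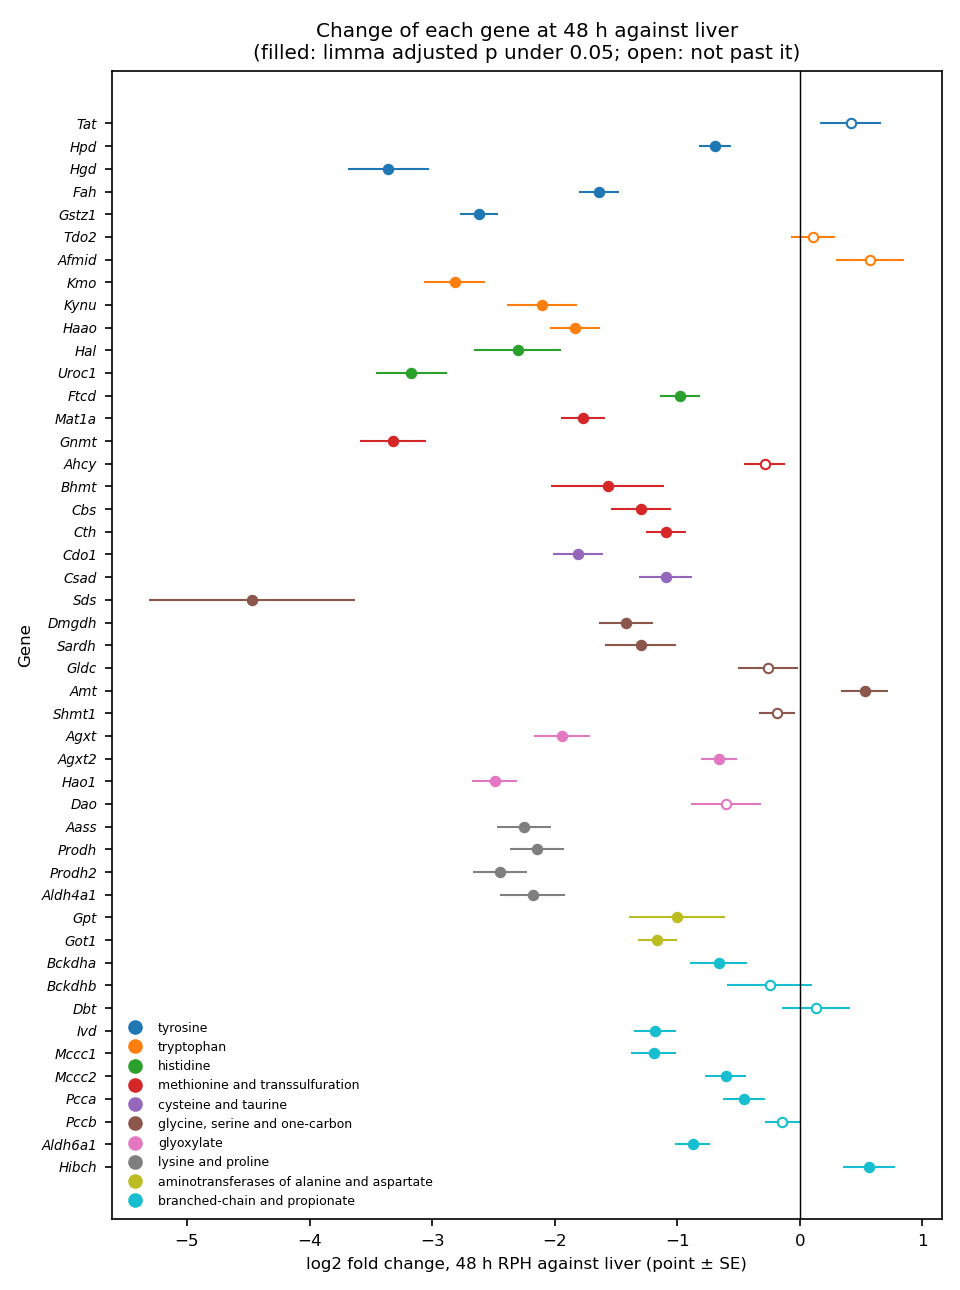
Log2 fold change at 48 h against liver of the 47 enzymes (rows, coloured by route), with bars of 1 SE from limma and filled points past an adjusted p of 0.05. Sds has the lowest value and the widest bar, and Amt and Hibch are the filled points to the right of 0.

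In the branched-chain and propionate route 6 of 10 members were lower at 48 h and 1 was higher, with a median of -0.53, the nearest to 0 of the 10 routes. Ivd, the isovaleryl-CoA dehydrogenase, had signals of 2682, 3344 and 2638 in liver, 2018, 2520 and 1964 at 4 h, 966, 1251 and 1034 at 24 h and 1284, 1379 and 1154 at 48 h (-1.18 ± 0.17, adjusted p = 9.9e-05). Mccc1, the biotin subunit of methylcrotonyl-CoA carboxylase, had 1443, 995 and 1531 in liver and 569.8, 559.5 and 577 at 48 h (-1.19 ± 0.18, adjusted p = 1.4e-04). Mccc2, its other subunit, had signals of 2642, 2685 and 3025 in liver, 2904, 2835 and 3936 at 0 h, 1862, 1819 and 2224 at 4 h, 908, 1258 and 1014 at 24 h and 1683, 1991 and 1820 at 48 h. Every rat of Mccc2 was lowest at 24 h and higher again at 48 h, with no overlap between these groups (0.80 ± 0.17, adjusted p = 0.017), and it stayed under liver (-0.61 ± 0.17, adjusted p = 0.010). The call of the rise of Mccc2 from 24 h to 48 h was lost without the 24 h sample of rat 1 or 3, the 48 h sample of rat 2 or 3 or all samples of any rat (log2 changes 0.69 to 0.87, adjusted p 0.0520 to 0.258). The call against liver was lost without all samples of rat 1 or 3 (log2 changes -0.58 to -0.54, adjusted p 0.0683 to 0.0757) and with centred arrays. It was called in 17 of 20 alternatives (log2 changes -0.78 to -0.21, adjusted p 0.00238 to 0.471).

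Of the complex at the head of the branched-chain route 1 of 3 subunits was called at 48 h. Bckdha, its E1 alpha subunit, was -0.66 ± 0.23 against liver at 48 h (adjusted p = 0.030), Bckdhb, the E1 beta subunit, -0.25 ± 0.35 (95% interval -0.99 to 0.50, adjusted p = 0.58), and Dbt, the E2 core, 0.13 ± 0.28 (95% interval -0.47 to 0.73, adjusted p = 0.72). Differences between the subunits were not tested. Dbt rose from 2810, 2311 and 3246 at 0 h to 5866, 5638 and 3807 at 4 h (0.86 ± 0.28, adjusted p = 0.026) and fell again to 24 h (-0.86 ± 0.28, adjusted p = 0.025). The call of its rise was lost without the pellet of rat 1 or 2, the 4 h sample of rat 1 or 2 or all samples of rat 1 or 2 (log2 changes 0.65 to 0.87, adjusted p 0.0550 to 0.164), and that of its fall without the 4 h sample of rat 1 or 2, the 24 h sample of rat 2 or 3 or all samples of any rat (log2 changes -1.01 to -0.57, adjusted p 0.0503 to 0.207). A dimmer probe set of Bckdha moved otherwise from 4 h to 24 h, and the mean of both gave 0.18 in place of -0.79. The call of Bckdha at 48 h was lost without the liver of rat 2 or 3, the 48 h sample of any rat or all samples of rat 2 or 3 (log2 changes -0.69 to -0.54, adjusted p 0.0567 to 0.194), and it was called in 11 of 20 alternatives (log2 changes -1.03 to -0.27, adjusted p 0.00337 to 0.458).

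In the valine branch Hibch was higher and Aldh6a1 lower at 48 h than in liver. Hibch, the hydroxyisobutyryl-CoA hydrolase, had signals of 2054, 2131 and 2880 in liver, 2164, 2994 and 3418 at 0 h, 1448, 1807 and 1974 at 4 h, 3328, 3898 and 2555 at 24 h and 3087, 3666 and 3610 at 48 h. Every rat was lowest at 4 h, and every 48 h signal was above every liver. Hibch changed by -0.70 ± 0.22 from 0 h to 4 h (adjusted p = 0.020), by 0.89 ± 0.22 from 4 h to 24 h (adjusted p = 0.0049) and by 0.57 ± 0.22 at 48 h against liver (adjusted p = 0.044). These calls were lost in turn without the pellet of rat 2 or 3, the 4 h sample of rat 1 or all samples of any rat (log2 changes -0.76 to -0.56, adjusted p 0.0577 to 0.130), without all samples of rat 1 or 2 (log2 changes 0.74 to 0.79, adjusted p 0.0567 to 0.0836), and without the liver of rat 1 or 2, the 48 h sample of rat 2 or 3 or all samples of rat 1 or 2 (log2 changes 0.46 to 0.55, adjusted p 0.106 to 0.276). Against liver at 48 h Hibch was called in 11 of 20 alternatives (log2 changes 0.35 to 0.96, adjusted p 0.0113 to 0.478). Aldh6a1, the methylmalonate semialdehyde dehydrogenase, had 10880, 11330 and 13410 in liver, 4827, 5228 and 5286 at 24 h and 6792, 5783 and 6845 at 48 h (-0.87 ± 0.14, adjusted p = 2.4e-04), and its second probe set gave -0.32. The change of Aldh6a1 was called in 18 of 20 alternatives (log2 changes -0.97 to -0.48, adjusted p 4.1e-05 to 0.0672), with the losses under centred arrays and the mean of its probe sets. Pcca, the alpha subunit of propionyl-CoA carboxylase, was -0.46 ± 0.17 against liver (adjusted p = 0.043), and Pccb, the beta subunit, -0.14 ± 0.14 (95% interval -0.45 to 0.17, adjusted p = 0.44). The call of Pcca was lost without the liver of rat 1 or 3, the 48 h sample of rat 1 or 3 or all samples of rat 1 or 3 (log2 changes -0.49 to -0.29, adjusted p 0.0668 to 0.369). It was called in 9 of 20 alternatives (log2 changes -0.65 to -0.06, adjusted p 0.00648 to 0.844), and centred arrays gave the change nearest to 0.

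Against the liver of the same-numbered rat, the median log2 difference of the members was -0.05, 0.31 and 0.09 in the pellets of rats 1, 2 and 3. It was -1.47, -1.09 and -1.31 at 24 h and -1.27, -1.28 and -1.14 at 48 h. The SDs were 0.18 in the pellets, 0.19 at 24 h and 0.08 at 48 h, and they include differences between the livers. The median coefficient of variation between rats was 13.7% in liver, 16.9% at 0 h, 19.1% at 4 h, 17% at 24 h and 15% at 48 h, and the widest was that of Sds at 4 h (130.0%).

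Other genes of amino acid breakdown were also lower more often than higher at 48 h. Of 55 further genes listed, 46 were tested, and 30 were lower and 6 higher at 48 h against liver (22.6% and 25.4% of all genes), with a median of -0.84 against 0.04. From 0 h to 4 h 18 of them fell and 1 rose (22.6% and 16.3% of all genes), and from 4 h to 24 h 24 fell and 5 rose (13.5% and 26.3%). The largest changes at 48 h were those of Aspg, an asparaginase (-4.79 ± 0.37, adjusted p = 5.0e-07), Oat, the ornithine aminotransferase (-3.55 ± 0.41, adjusted p = 1.5e-05), Ppm1k, the phosphatase that activates the branched-chain ketoacid complex (-3.32 ± 0.30, adjusted p = 1.4e-06), and Dhtkd1 of lysine breakdown (-2.73 ± 0.19, adjusted p = 1.9e-07). Bckdk, the kinase that inactivates this complex, was chosen after its values were seen, and it was higher at 48 h (0.74 ± 0.21, adjusted p = 0.011).

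Among transporters of amino acids rises outnumbered falls between 0 h and 4 h. Of 26 tested, 10 rose and 2 fell from 0 h to 4 h (16.3% and 22.6% of all genes), 9 fell and 2 rose from 4 h to 24 h (13.5% and 26.3% of all genes), and 9 were lower and 3 higher than liver at 48 h (22.6% and 25.4% of all genes), with a median of -0.53 against 0.04. The largest changes at 48 h were those of Slc1a2, a glutamate carrier with dim signals (mean 81.6 in liver and 7.16 at 48 h, -3.26 ± 0.71, adjusted p = 0.0021), Slc16a10, a carrier of aromatic amino acids (-1.64 ± 0.20, adjusted p = 2.5e-05), Slc38a3, a glutamine carrier (-1.62 ± 0.27, adjusted p = 3.1e-04), and Slc7a1, a carrier of arginine and lysine (1.51 ± 0.53, adjusted p = 0.032).

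Among 21 tested regulators known to act on such genes, 10 were lower and 1 higher at 48 h against liver (22.6% and 25.4% of all genes), with a median of -0.57 against 0.04. Cebpa, a C/EBP factor of mature hepatocytes, was lower (-2.33 ± 0.30, adjusted p = 3.1e-05), as were Nr3c1, the glucocorticoid receptor (-1.71 ± 0.22, adjusted p = 3.6e-05), and Onecut1 (-2.82 ± 0.99, adjusted p = 0.032). Cebpd, an acute phase C/EBP factor, was higher (1.83 ± 0.30, adjusted p = 2.6e-04). No link between a regulator and a member was tested.

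Markers of hepatocytes were bright in every group, and those of most other liver cell types were lower in culture than in liver. The summed signal of 9 tested hepatocyte markers ranged from 298500 to 328200 in liver and from 176400 to 197900 at 48 h, when 7 of them were lower and 0 higher (22.6% and 25.4% of all genes), with a median of -0.67. That of 8 Kupffer cell markers went from 15970 to 21730 in liver to 1598 to 2165 at 48 h, and all 8 were lower. That of 8 sinusoidal endothelial markers went from 12490 to 15150 to 354 to 774, with all 8 lower, and that of 10 stellate cell markers from 7010 to 14050 to 1265 to 2479, with 6 lower. Sums over 9 lymphocyte markers fell from 1019 to 1758 in liver to 198 to 249 at 48 h (all 3 tested lower). Those over 5 red cell markers fell from 7830 to 59320 to 231 to 324 (all 5 lower). Those over 5 cholangiocyte markers were 1073 to 1121 in liver and 2250 to 3213 at 48 h (of 3 tested, 1 lower and 1 higher). Most of the cholangiocyte sum was Epcam (mean 792.5 in liver and 2441 at 48 h), while Krt19 went from 163.1 to 31.5. For the beta-actin control the 3′ signal divided by the 5′ signal, a sign of RNA breakdown, was 4.60 ± 2.05 (SD) in liver and 2.22 ± 0.25 at 48 h. The part of these shifts in the results was not tested, beyond a fit with the beta-actin ratio as a covariate, in which 29 members were lower and 0 higher at 48 h against liver.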

How the data were processed

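Total RNA of liver and hepatocytes was hybridised to 1-colour Affymetrix RG230-2 arrays. The authors deposited MAS5 signal intensities, linear values with each array scaled to the same mean after trimming 2% of the probe sets at each end (500 on every array), and left out 2 arrays. The sources used here do not settle whether scanner software or the affy package made them. Precision is limited by the number of rats (3 per group). Of 31099 probe sets, 20832 had a single gene in the platform annotation, 436 had several, 57 were controls, and 9780 were unnamed here.

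Technical arrays were averaged on the log2 scale to 15 rat by group values, probe sets above the array median on 5 or more of the 43 arrays were kept, and each gene was taken from its brightest probe set (10650 genes). One limma fit (version 3.58.1 in R 4.3.3) over the 5 groups without a rat term was used. It had eBayes and Benjamini-Hochberg adjustment within each of 6 comparisons. The fit was run on simulated data with independent noise in each sample, which cannot check it where samples of a rat deviate together. Samples are numbered by animal, so same-numbered samples pair by their labels. The correlation of their deviations had a median of 0.341 over 30 pairs, livers included, against -0.179 between rats. For the livers of rats 1 and 2 it was no higher with the own rat than with the other, as given above. Alternatives changed the offset, scaling, filter, probe sets, averaging, rat block, groups fitted, prior and beta-actin ratio, or left out samples or rats. Named were every member, the signals of members leading each route or higher than liver, and at most 4 genes of each other list with the largest change at 48 h. Bckdk, and the promoters of Tat and Tdo2, were added after values were seen. Promoter windows were searched over the 250 bases before the start and not over the 50 after it. Members and lists were chosen with earlier results of these data known.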

Additional observations from a re-analysis of the deposited data

How the results depend on the processing

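No member was called at 0 h against liver under any alternative. Against liver at 48 h the count of lower members was 26 with arrays centred on their median, 29 with the beta-actin ratio as a covariate and 31 to 34 with a sample or rat left out, against 35. The higher count was 1 under quantile normalization, 4 with centred arrays, 0 without the filter, 0 with the beta-actin ratio and 0 to 3 with a sample or rat left out, against 2. At 24 h against liver centring gave 4 higher members in place of 0, and leaving out a sample or rat 0 to 1 (33 to 35 lower, against 34).

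From 0 h to 4 h the lower count fell from 18 to 5 with centred arrays and was 7 to 19 with a sample or rat left out, while the higher count was 2 with centred arrays and 1 to 2 with a sample or rat left out. From 4 h to 24 h the higher count was 1 with centred arrays, without the filter and with the beta-actin ratio, and 0 to 3 with a sample or rat left out, against 2, and the lower count was 25 to 33, against 33. From 24 h to 48 h the lower count was 1 under quantile normalization and with the intensity trend, against 0. The higher count there was 2 with the offset, under quantile normalization and with the median of technical arrays, 0 with centred arrays or with the compared groups alone, 3 with the intensity trend and 0 to 2 with a sample or rat left out, against 1. The cause of these shifts was not tested, except that leaving out samples leaves fewer to fit.

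With the rat as a replicate block (paired by animal) the counts of lower and higher members were 27 and 4 from 0 h to 4 h, 34 and 3 from 4 h to 24 h, 1 and 4 from 24 h to 48 h, 36 and 0 at 24 h against liver and 36 and 3 at 48 h against liver. With the livers of rats 1 and 2 exchanged in the block they were 1 and 5 from 24 h to 48 h and 35 and 2 at 48 h against liver.

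Centring raised the median change of all genes at 48 h against liver from 0.04 to 0.43, and that of the members from -1.18 to -0.79. Among the called changes of single members 1 reversed, that of Bckdha from 4 h to 24 h. It was 0.18 with the mean of the Bckdha probe sets (adjusted p = 0.614). At 48 h against liver the 47 members stayed on their side of the threshold 864 times over the alternatives. They lost a call 68 times and gained one 8 times. The sign of a change that was not called is not part of these counts. Dim signals, as those of Sds at 48 h, limit how well a fold is known.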
